A study of Rattus norvegicus with 6 samples.

Results

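The tubulin isotypes described here are 10 genes, 4 for alpha-tubulin (Tuba1a, Tuba1b, Tuba1c and Tuba4a) and 6 for beta-tubulin (Tubb2a, Tubb2b, Tubb3, Tubb4b, Tubb5 and Tubb6). They were taken by gene name from a table of 33589 rows, and each name had 1 row. The set was chosen with the stiff and soft values of this same table in view. Its members' differences between the groups are therefore a description. Members past the threshold of the fit over all genes are counted and named beside the share over all genes. No conclusion is drawn from these counts or from a member's p-value. The table held FPKM (fragments scaled to gene length and to library size) for polyA RNA of mesenchymal stem cells (MSCs) from rat bone marrow. MSCs are progenitors of bone, cartilage and fat cells. The cells had been kept for 48 h in a hydrogel that the labels name SA, at 2 kPa in the soft group and at 18 kPa in the stiff group, with 3 libraries each. Both groups had low-glucose medium with 10% serum, and the cells were taken out of the gel before a library kit made for single-cell amounts of RNA was used. No library of cells outside a gel was analysed here, so every value is from gel-held cells. The design text speaks of 4 replicates per condition, and 3 per condition were analysed here. The sources used here do not say whether replicates came from different animals or cultures, and p-values therefore reflect only the spread among these libraries, part of which may be technical.

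Microtubules are hollow filaments built from dimers of alpha- and beta-tubulin, and vertebrates make each subunit from several genes. The encoded isotypes are nearly identical in their folded bodies and differ most in their acidic C-terminal tails, where motors, microtubule-associated proteins (MAPs) and modifying enzymes act. Tuba1a, Tuba1b and Tuba1c encode nearly the same protein. Tubb5 and Tubb4b are widely expressed, Tubb3 and Tubb2b are best known from neurons, and Tubb6 is found in many non-neuronal tissues and in muscle. New chains are folded by prefoldin and the TRiC chaperonin and joined into dimers by tubulin cofactors. When free dimer is plentiful, the factor Ttc5 recognises the nascent tubulin chain and the mRNA is degraded, so a cell's tubulin mRNA level is known to respond to the state of its microtubules.

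Recovered reads came to between 14966354 and 16711527 per library. FPKM summed over all genes was 452787 to 457306 in soft and higher in every stiff library, at 467372 to 478304. Of 10 mesenchymal stromal markers, all 10 passed the level filter and none passed the test between groups in limma, with 1 at an unadjusted p under 0.05 and none by voom. Their summed level was 8692 to 9508 FPKM in soft and 9230 to 10080 in stiff. Endothelial markers (7 in the table) summed to 1.90 FPKM or less in every library, and erythroid markers to 0.768 or less. Neuronal and glial markers summed to between 5.67 and 7.70 FPKM, with Elavl4 at 0 in every library and most of the sum from Snap25 (3.77 to 5.52 FPKM). Leukocyte and macrophage markers were present, at 238.0 to 239.2 FPKM in soft and 230.9 to 233.5 in stiff. Soft replicate 1 stood apart from the other soft libraries, and a comparison of its read counts with theirs gave a chi-square of 16.8 and 13.5 per degree of freedom, against 3.71 between the other 2. Among stiff libraries the value was 8.30 for replicates 1 and 2, 5.43 for 1 and 3 and 8.63 for 2 and 3.

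Tubb5 was the most abundant tubulin mRNA in both groups, followed by Tuba1b, Tubb6, Tuba1a and Tubb4b. FPKM is a value per gene length, so levels can be set side by side between genes. The 5 leading genes had means of 56.8 FPKM or more in soft, and the next, Tuba4a, had 11.5. The 5 ranged from the 91.5th percentile of the 12713 genes tested for Tubb4b to the 98.2nd for Tubb5. Tuba4a and Tubb2a followed, then Tuba1c and Tubb3, and Tubb2b came last. Ranks 1 to 7 were the same in soft and stiff, and neighbours in the order did not overlap over the 3 libraries of a group, apart from Tuba1c and Tubb3. Those genes overlapped in both groups and exchanged ranks 8 and 9. The plot of FPKM by library shows this ladder.

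**Figure D1:**
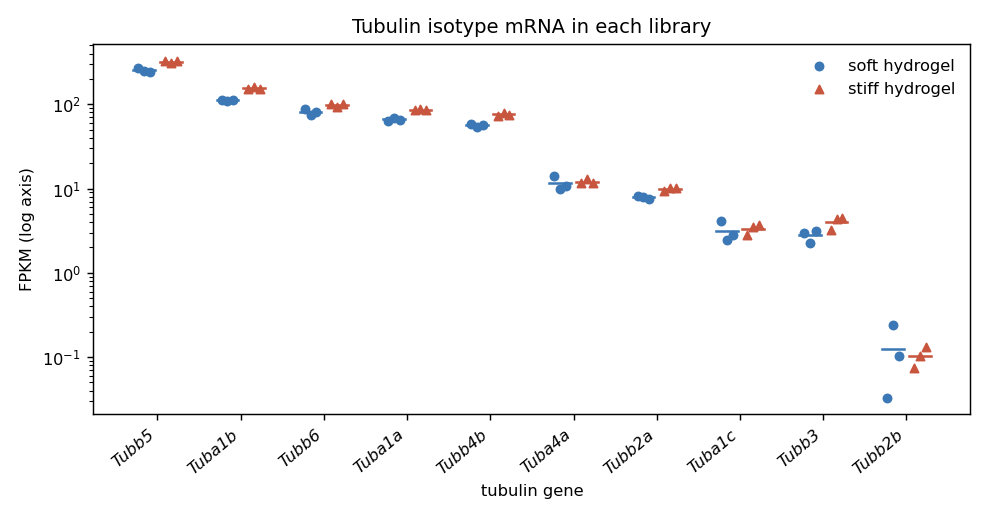
FPKM of the 10 tubulin isotype genes on a log axis, ordered by their mean in soft. Each circle is a soft library, each triangle a stiff library (replicates 1 to 3 from left to right), and bars mark the mean of 3. Tubb5 lies highest at 243.4 to 328.2 FPKM and Tubb2b lowest at 0.0331 to 0.237.

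The precision of these levels differed between members. Tubb5 rested on 8540 to 11846 reads per library, so counting error was 1.08% or less. Tuba1b rested on 2848 to 4140 reads and Tubb4b on 1471 to 2126. Tuba1c had only 62 to 107 reads per library and Tubb3 66 to 134, with counting errors of up to 12.7% and 12.3%. Tubb2b had 1, 7 and 3 reads in the soft libraries 1 to 3 and 2, 3 and 4 in the stiff ones, so its level was close to the limit of detection and no difference could be read from it. Intervals of this kind cover counting error only. Because tubulin genes are near-identical in their coding parts, a read can match more than 1 of them. The handling of multiply mapped reads is not stated in the sources used here. The RefSeq table (GRCr8) lists 14 pseudogenes named after Tuba1b, 5 after Tuba1a, 4 after Tubb4b and 1 after Tuba4a, so these levels are uncertain for that reason. Only copies that carry a parent's symbol were counted, so other members, Tubb5 among them, may have copies under other names. A tubulin-like gene, LOC100909441, had 3.46 FPKM in soft and 3.79 in stiff, and a processed pseudogene, LOC100911830, had 0.551 and 0.798. No other gene model of the table overlaps any of the 10.

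Members that lie close together in the genome differed widely in level. Tuba1b (chromosome 7, 140614752 to 140617721, minus strand), Tuba1a (140637287 to 140640953, minus strand) and Tuba1c (140716113 to 140723714, plus strand) form a cluster, with coordinates as the table gives them and its build not named. Tuba1b and Tuba1a are 19565 bases apart, and both were among the 5 leading genes. Tuba1c begins 75159 bases beyond Tuba1a and had 3.14 FPKM in soft. Tubb2b ends 10347 bases before Tubb2a on chromosome 17 (31493107 to 31498651, plus strand), and the 2 genes read 0.124 and 7.87 FPKM in soft. Tubb5 (chromosome 20, 3422461 to 3426371, plus strand), Tubb6 (chromosome 18), Tubb4b (chromosome 3), Tubb3 (chromosome 19) and Tuba4a (chromosome 9) lie alone. All 10 are annotated as protein-coding.

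The sequence before the start of each gene was read from RefSeq (GRCr8), where all 10 members matched by symbol. The 250 bases upstream are shown for the 6 members of highest level. On the plus strand they lie at chr20:2917327-2917576 for Tubb5 and chr18:63213037-63213286 for Tubb6. On the minus strand they lie at chr7:131972588-131972837 for Tuba1b, chr7:131995820-131996069 for Tuba1a, chr3:28438456-28438705 for Tubb4b and chr9:84162585-84162834 for Tuba4a. Each is written 5′ to 3′ toward the gene, with matches to the searched motifs in capitals.
Tubb5: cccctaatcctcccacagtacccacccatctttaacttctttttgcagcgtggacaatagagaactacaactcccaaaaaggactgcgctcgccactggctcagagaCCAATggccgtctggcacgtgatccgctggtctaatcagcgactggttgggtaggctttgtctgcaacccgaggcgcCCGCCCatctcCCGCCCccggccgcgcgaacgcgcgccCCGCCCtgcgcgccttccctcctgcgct
Tuba1b: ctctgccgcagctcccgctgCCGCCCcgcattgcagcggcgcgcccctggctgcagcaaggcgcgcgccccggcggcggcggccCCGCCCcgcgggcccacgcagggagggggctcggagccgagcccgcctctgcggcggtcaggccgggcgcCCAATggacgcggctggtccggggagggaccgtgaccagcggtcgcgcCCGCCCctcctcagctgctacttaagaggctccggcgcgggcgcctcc
Tubb6: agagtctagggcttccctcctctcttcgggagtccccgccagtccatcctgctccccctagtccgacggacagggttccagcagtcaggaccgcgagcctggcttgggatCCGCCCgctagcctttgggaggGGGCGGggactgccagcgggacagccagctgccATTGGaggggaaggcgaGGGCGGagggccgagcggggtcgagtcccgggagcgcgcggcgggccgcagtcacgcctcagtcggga
Tuba1a: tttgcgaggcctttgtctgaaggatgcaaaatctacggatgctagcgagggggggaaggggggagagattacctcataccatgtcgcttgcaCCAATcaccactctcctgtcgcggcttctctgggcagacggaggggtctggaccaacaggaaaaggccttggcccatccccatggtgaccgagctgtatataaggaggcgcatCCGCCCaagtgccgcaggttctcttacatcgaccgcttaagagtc
Tubb4b: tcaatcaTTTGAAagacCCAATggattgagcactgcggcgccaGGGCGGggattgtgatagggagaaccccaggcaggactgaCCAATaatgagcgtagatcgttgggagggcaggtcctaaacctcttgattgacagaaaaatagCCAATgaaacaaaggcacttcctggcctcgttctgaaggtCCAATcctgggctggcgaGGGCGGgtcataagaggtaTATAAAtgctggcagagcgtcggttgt
Tuba4a: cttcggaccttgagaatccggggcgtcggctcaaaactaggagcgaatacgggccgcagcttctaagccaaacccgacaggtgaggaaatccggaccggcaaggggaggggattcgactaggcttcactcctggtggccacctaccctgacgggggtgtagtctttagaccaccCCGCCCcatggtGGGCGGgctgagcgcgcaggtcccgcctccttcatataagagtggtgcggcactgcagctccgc

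Motifs were searched on both strands in the 250 bases upstream of 33469 RefSeq promoters. A CCAAT box (CCAAT) was present before 8 of the 10 members and in 34.0% of all promoters, and a GC box (GGGCGG) before 9 members and in 30.5% of all. Both were present before 7 members, all but Tuba4a, Tubb2a and Tubb2b, and in 10.1% of all promoters. Tubb4b stood out among the printed sequences, with 4 CCAAT boxes at 229, 163, 100 and 60 bases before the start, a TATA box (TATAAA, in 12.9% of all) at 22 and the cell-cycle homology element TTTGAA (16.2% of all) at 238. Only the exact letters TATAAA were counted as a TATA box, so the tatataa in the printed window of Tuba1a was not counted. Tuba1b, Tubb5 and Tubb6 each had 1 CCAAT box and 3 GC boxes, and Tuba1a had 1 of each. Tuba4a had 2 GC boxes at 71 and 59 bases and no CCAAT. The TEAD motif (GGAATG, 12.1% of all) and the CArG box (1.5% of all) were found before none of the 10, which says only that these letters are not in this window. No match of 1 motif overlapped a match of another in a member. The members' windows held 52.0% to 80.4% G and C, and all 10 were above the median of 51.2% over all promoters. The lowest value, that of Tubb4b, was reached by 48.5% of all promoters.

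Between the hydrogels, tubulin mRNA was higher in stiff for most members. Summed over the 10 members, FPKM was 622.7, 576.3 and 584.5 in the soft libraries (replicates 1 to 3) and 761.5, 758.4 and 773.0 in the stiff libraries, a ratio of means of 1.29. In reads, the members took 0.110% to 0.118% of a soft library and 0.141% to 0.145% of a stiff one. For 7 of the 10 members all stiff libraries lay above all soft libraries, for none below, and for 3 the groups overlapped (Tuba4a, Tuba1c and Tubb2b). Among all genes tested, 11.7% had all stiff libraries above all soft and 10.9% below. Of the 9 members that passed the filter of a mean of 1 FPKM or more, 4 were past the adjusted p of 0.05 in limma's fit over all genes, all higher in stiff (Tuba1a, Tuba1b, Tubb4b and Tubb5), and 0 were lower. The number was again 4 without soft replicate 1, 0 without stiff replicate 1 and 1 (Tuba1b) without each of the other libraries. Over all genes tested 1.43% passed, 1.01% higher and 0.425% lower. Since the members were chosen on this contrast, nothing is read from these counts or from how they vary. The median difference in log2(FPKM + 1) was 0.33 over the 9, beside 0.0013 over all genes tested. In bulk samples, a change in the number of cells of a type and a change in RNA per cell cannot be told apart.

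Over every setting tried, the log2 difference stayed above 0 for 7 of the 9 members. The members were chosen on this contrast and the settings reuse the same libraries, so this is a description and no independent check. Tuba1c and Tuba4a were both at -0.03 without soft replicate 2.

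Among the alpha-tubulins, Tuba1b, a widely expressed isotype, had 112.3, 108.1 and 113.5 FPKM in soft and 152.6, 159.3 and 152.0 in stiff. The groups were well apart, with 111.3 ± 2.83 against 154.6 ± 4.04 FPKM (SD, n = 3), a ratio of 1.39 and a log2 difference of 0.47 (SE 0.0473). Tuba1a, the alpha isotype prominent in developing neurons, had 62.8, 69.5 and 65.9 FPKM in soft and 85.2, 87.5 and 85.7 in stiff. The stiff libraries of Tuba1a were close together and all above soft, with a ratio of 1.30 and a log2 difference of 0.38 (SE 0.0540). Tuba4a, whose protein is the alpha isotype made without the usual C-terminal tyrosine, had 14.0, 9.82 and 10.8 FPKM in soft and 11.5, 12.99 and 11.6 in stiff. Its highest library was soft replicate 1, the groups overlapped, and the log2 difference of 0.07 was smaller than its SE of 0.124. Tuba1c showed the same picture at a lower level, with 4.16, 2.47 and 2.81 FPKM in soft and 2.85, 3.47 and 3.74 in stiff, and a log2 difference of 0.09 (SE 0.165). Without soft replicate 1 the log2 differences were 0.20 for Tuba4a and 0.26 for Tuba1c, and neither passed. Without soft replicate 2 both were -0.03.

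Among the beta-tubulins, Tubb5, a general beta isotype of many dividing cells, had 271.0, 247.4 and 243.4 FPKM in soft and 323.7, 306.8 and 328.2 in stiff. All stiff libraries lay above soft, at 319.6 ± 11.3 against 253.9 ± 14.9 FPKM (SD, n = 3), a ratio of 1.26 and a log2 difference of 0.33 (SE 0.0578). Tubb4b, a widely expressed isotype that is also found in cilia, had 58.4, 54.5 and 57.3 FPKM in soft and 72.1, 79.9 and 75.4 in stiff. Its groups were apart by more than their spread, with a ratio of 1.34 and a log2 difference of 0.41 (SE 0.0582). Tubb6 had 88.9, 74.0 and 80.1 FPKM in soft and 100.8, 93.7 and 101.5 in stiff. The lowest stiff library of Tubb6 was 4.81 FPKM above the highest soft one, soft replicate 1, and its ratio of 1.22 was the lowest among the 5 most abundant members. Tubb2a, a minor isotype outside the nervous system, had 8.21, 7.98 and 7.42 FPKM in soft and 9.40, 10.3 and 10.2 in stiff, with a ratio of 1.27 and no overlap. Tubb3, a common neuronal marker, had 2.97, 2.28 and 3.13 FPKM in soft and 3.27, 4.34 and 4.53 in stiff. Its ratio of 1.45 was the highest of the 10, and the groups were parted by only 0.137 FPKM, which is less than the SD of either group (0.451 and 0.681). Tubb2b had 0.0331, 0.237 and 0.102 FPKM in soft and 0.0746, 0.103 and 0.133 in stiff, so the soft libraries spanned the stiff ones. The plot of log2 differences sets the 9 tested members beside 4 tubulins outside the set.

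**Figure D2:**
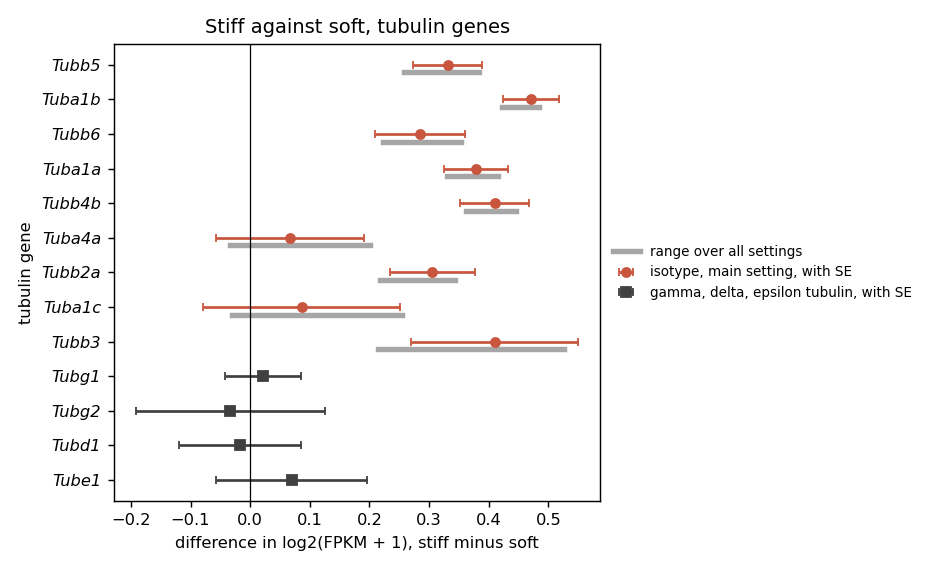
Difference in log2(FPKM + 1), stiff minus soft, for the 9 tested isotypes (circles) and for gamma-, delta- and epsilon-tubulin genes (squares), with error bars of 1 SE from limma. Grey bars give the range over all settings tried. The isotypes were chosen on these values; 7 of them lie at 0.28 or more, and Tuba4a and Tuba1c lie near 0 with bars that reach below it.

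The shares of the isotypes differed little between the groups, while the total was higher in stiff. Summed alpha-tubulin FPKM was 192.1 ± 1.86 in soft and 256.1 ± 6.15 in stiff (SD, n = 3), a ratio of 1.33. Summed beta-tubulin FPKM was 402.5 ± 23.6 and 508.1 ± 12.5, a ratio of 1.26. The beta sum was 2.22, 2.03 and 2.03 times the alpha sum in the soft libraries and 2.02, 1.88 and 2.06 times in the stiff libraries, and these ranges overlapped. Tubb5 made up 63.1% ± 0.917 of the beta sum in soft and 62.9% ± 0.821 in stiff, and the shares of all 6 beta members overlapped between groups. Among the alpha members, Tuba1b made up 58.1%, 56.9% and 58.8% of the sum in soft and 60.5%, 60.5% and 60.1% in stiff, so its share was higher in every stiff library. Tuba4a had the opposite pattern, with 7.24%, 5.17% and 5.61% in soft and 4.56%, 4.93% and 4.58% in stiff. The shares of Tuba1a and Tuba1c overlapped. Of the difference in summed FPKM, Tuba1b accounted for 67.6% and Tuba1a for 31.3% of the alpha side, and Tubb5 for 62.1%, Tubb4b for 18.0% and Tubb6 for 16.7% of the beta side.

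**Figure D3:**
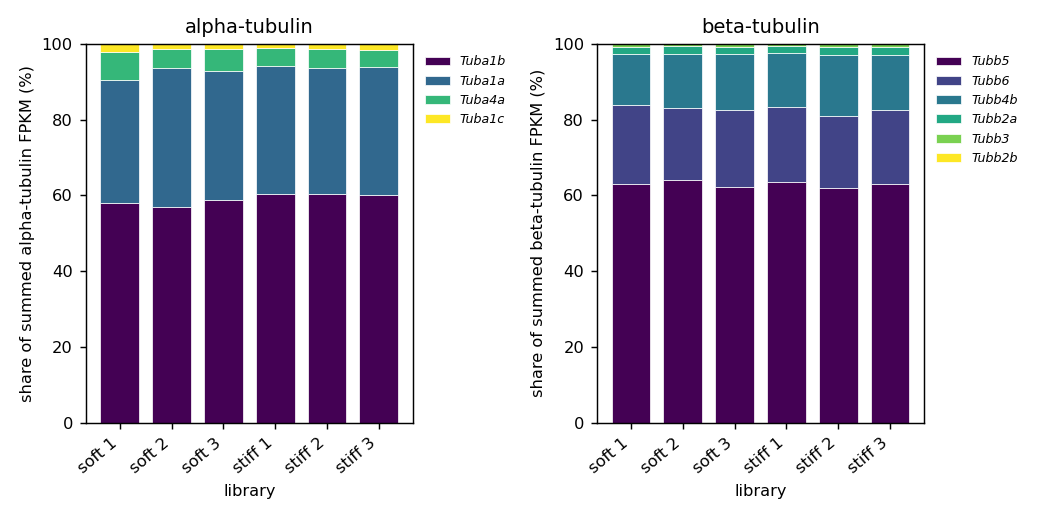
Share of each isotype in the summed alpha-tubulin FPKM (left) and the summed beta-tubulin FPKM (right) in each of the 6 libraries, as stacked bars that add to 100%. Tubb5 holds 62.0% to 64.0% of the beta sum in every library, and Tuba1b holds 60.1% or more of the alpha sum in stiff against 58.8% or less in soft.

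None of the 4 tested tubulin genes outside the set passed the test. Gamma-tubulin, which seeds microtubules rather than forming their wall, is encoded by Tubg1 and Tubg2. Tubg1 had 18.7 ± 0.390 FPKM in soft and 19.0 ± 1.14 in stiff (SD, n = 3), and Tubg2 3.85 ± 0.758 and 3.74 ± 0.741. Tubd1 and Tube1, the delta and epsilon tubulins of centrioles, read 3.17 and 1.11 FPKM in soft and 3.12 and 1.22 in stiff. The groups overlapped for all 4, none passed in limma or voom, and none had an unadjusted p under 0.05. The alpha gene Tuba8 had 56 reads over all libraries, Tuba3a 28, Tubb4a 2 and Tubb1 1, and Tuba3b and Tubal3 had no read, so these isotypes were at or near the limit of detection.

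The genes that fold tubulin, regulate its mRNA, nucleate, modify, bind or move on microtubules were followed in 11 lists of 190 genes, of which 186 were in the table by name and 153 were tested. Of these 153, 5 rose in stiff and none fell (limma, adjusted p of 0.05), beside 1.01% higher and 0.425% lower over all genes tested. Over all genes tested 50.4% had a log2 difference above 0, the share beside which the counts above 0 in the lists stand. The 5 genes that passed were Stmn1 and 4 spindle proteins, described below. The plot of list members shows the difference of every tested gene. These lists and the cell cycle list were chosen with earlier results of these data known. Their counts and p-values are therefore a description.

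The tubulin folding machinery had no gene that passed in either direction, by limma or by voom. All 8 TRiC subunits were above 0 with a median log2 difference of 0.09, and 2 had an unadjusted p under 0.05. When libraries were scaled to equal FPKM sums, all 8 were above 0 with a median of 0.05, beside -0.04 over all genes tested. Cct5 read 126.4 ± 3.39 FPKM in soft and 134.1 ± 1.90 in stiff (SD, n = 3), and Cct2 95.0 ± 6.37 and 99.8 ± 7.72. Among 13 cofactor and prefoldin genes 10 were above 0, 6 when libraries were scaled to equal FPKM sums, and 1 had an unadjusted p under 0.05. Tbca, which holds free beta-tubulin, read 93.1 ± 4.37 and 102.4 ± 12.0 FPKM, and Pfdn5 62.4 ± 4.95 and 62.8 ± 3.76. Tbcb, named after its values were seen, had 16.7, 0.307 and 1.05 FPKM in soft and 0.203, 0.498 and 0.3005 in stiff, so its mean was set by soft replicate 1. A row for a Tbcb-like copy, LOC103690005, stood beside it, so a read of Tbcb may match either row. Of 6 genes of tubulin mRNA autoregulation, 3 were above 0 and none passed by either tool or had an unadjusted p under 0.05. Among these Ttc5, also named after its values were seen, read 7.91 FPKM in soft and 7.10 in stiff. Cnot8 and Cnot1, parts of the deadenylase complex, read 30.6 and 23.3 FPKM in soft and 31.2 and 22.5 in stiff.

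The lists of nucleation genes, lattice-binding MAPs, plus-end binding proteins, modifying enzymes and interphase motors held no gene that passed in limma. None of 17 nucleation genes, 17 lattice-binding MAPs and 15 plus-end binding proteins passed in limma or voom, with 1 gene of each list at an unadjusted p under 0.05. Of these, 7, 3 and 5 were above 0, and the median log2 differences were -0.02, -0.07 and -0.06. Mzt1 read 24.3 FPKM in soft and 25.2 in stiff, Map4 63.6 and 62.7, Map1lc3a 144.1 and 141.2, Mapre1 55.4 and 58.1 and Dctn1 39.6 and 36.9. Of 18 tubulin modifying enzymes 6 were above 0, with a median of -0.05; none passed in limma, 5 had an unadjusted p under 0.05 and voom called 1 lower. The most abundant, the deacetylase Sirt2, had 54.7, 49.8 and 50.9 FPKM in soft and 44.0, 45.9 and 45.4 in stiff, below soft in every library but not past the threshold (limma adjusted p = 0.167). Tpgs1, of the polyglutamylase complex, read 28.9 and 29.1 FPKM. Of 23 interphase motor genes 11 were above 0, with a median of -0.02; none passed in limma, 3 had an unadjusted p under 0.05 and voom called 1 higher. Dynll1 read 187.1 ± 4.77 and 207.9 ± 22.6 FPKM (SD, n = 3) and Dynlrb1 133.6 ± 7.34 and 149.2 ± 7.83.

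Stmn1 and 4 of 24 spindle genes rose in stiff. Over all genes tested 1.01% were higher, 0.425% were lower and 50.4% had a difference above 0. Stmn1, which binds free tubulin dimers and is switched off by phosphorylation in mitosis, had 12.0, 11.9 and 11.4 FPKM in soft and 20.2, 18.7 and 19.6 in stiff. It rose by 0.68 on the log2 scale (SE 0.0598, limma adjusted p = 0.00438), and it passed with each library left out in turn. Those fits share libraries with the main one, so the passes are no independent check. It was 1 of 8 tested genes among depolymerizers, severing enzymes and stathmins, where 7 were above 0, none fell and voom called 2 higher. Of the 24 spindle microtubule proteins none fell and 20 were above 0, with a median log2 difference of 0.44. Prc1, the crosslinker of the central spindle, rose from 5.94 ± 0.395 to 9.83 ± 0.535 FPKM (SD, n = 3; limma adjusted p = 0.0132). Tpx2, a spindle assembly factor, rose from 3.997 ± 0.289 to 7.23 ± 0.622 FPKM (limma adjusted p = 0.0154). The central spindle motors Kif23 and Kif20a rose from 2.52 to 4.37 and from 6.45 to 9.95 FPKM (limma adjusted p = 0.0243 for each). The count of 4 was 3 without soft replicate 1, 1 without soft replicate 2 and 0 without each of the other libraries, and voom called 11.

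Of 19 tested cell cycle genes outside the spindle list, 8 rose in stiff, none fell and all 19 were above 0, with a median log2 difference of 0.46. Beside these counts stand 1.01% higher, 0.425% lower and 50.4% above 0 over all genes tested. Cdk1, the kinase that drives entry into mitosis, had 9.42, 9.39 and 9.50 FPKM in soft and 14.2, 16.3 and 15.8 in stiff (limma adjusted p = 0.00860). Plk1 rose from 4.48 to 8.36 FPKM (limma adjusted p = 0.00816), Cdc20 from 6.15 to 10.2 (0.0106) and Ccnb1 from 5.30 to 9.43 (0.0129). The count was 9 without soft replicate 1, 3 without soft replicate 2, 2 without stiff replicate 2 and 1 without each of the other libraries. Summed FPKM of the 19 genes was 124.1 to 126.2 in soft and 169.1 to 173.4 in stiff. Of 9 tested leukocyte and macrophage markers 3 passed, beside 1.43% of all genes tested, and the median log2 difference of the 9 was -0.04. Adgre1 was higher (69.0 to 84.9 FPKM) and Cd68 (40.4 to 27.7) and Cd53 (12.6 to 8.20) were lower in stiff by the same test, Adgre1 did not pass with any library left out, and the others passed only without soft replicate 1. The part of either marker group in the tubulin differences was not tested.

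**Figure D4:**
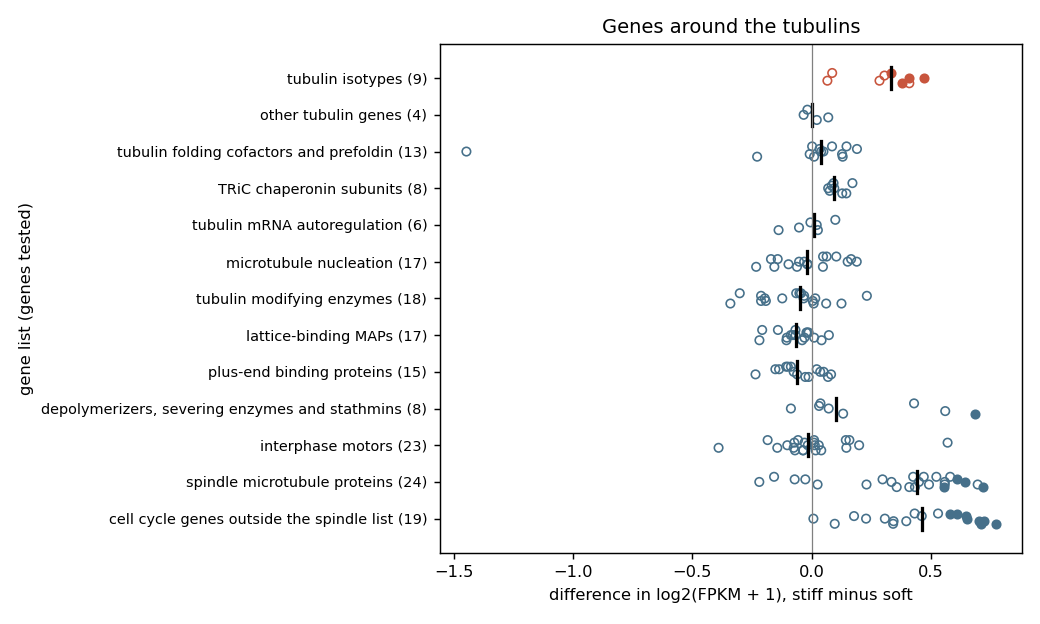
Difference in log2(FPKM + 1), stiff minus soft, for every tested gene of the isotype set (red) and of 12 gene lists (blue), with the number tested in parentheses. Filled points passed the test at an adjusted p of 0.05 and black ticks are medians. Filled points lie in the isotypes, which were chosen on these values, Stmn1, the spindle list and the cell cycle list; the point far to the left is Tbcb.

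Across the 6 libraries, the genes outside the set whose log2(FPKM + 1) followed the log2 of the summed tubulin FPKM most closely were Csrp1, Gemin8, Ramp3, Thbs4 and Mrpl17. Likeness was the Pearson correlation over the 6 libraries among 8875 genes whose mean was 5 FPKM or more, and it was 0.998 for Csrp1 and Gemin8, 0.997 for Ramp3 and Thbs4 and 0.995 for Mrpl17. The libraries fall into the soft and stiff clusters, so these values mainly rank genes that part the groups, and they are given as a description. Csrp1, a LIM domain protein of the actin cytoskeleton, had 134.0, 120.8 and 120.6 FPKM in soft and 170.2, 172.6 and 178.0 in stiff. Soft replicate 1 was its highest soft library, as it was for the summed tubulin FPKM by which Csrp1 was picked.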

How the data were processed

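PolyA RNA of 6 libraries was analysed from 1 gene table. Its FPKM values were made by the authors. Per the submitters' processing notes, the tools were Cufflinks 2.1.1, Bowtie 0.12.9 and HTSeq and the builds those of mouse (mm10, GRCm38), while the table has rat identifiers and names no build. Every value was a whole multiple of 1 read's worth (100% within 0.001 of a whole number), which gave the reads per gene. Genes averaging 1 FPKM or more were tested on log2(FPKM + 1), a scale that understates changes of low genes, with limma 3.58.1 in R 4.3.3 (group term, variance trend, two-sided, Benjamini-Hochberg over 12713 genes, threshold 0.05). Scripts were tested on simulated data. Rank tests were not used, since 3 against 3 libraries cannot give an exact two-sided p under 0.1. Members and lists were chosen with earlier results of these data known. Genes named were all members, up to 4 passing genes per list with the smallest p or else its 2 most abundant, and the 5 genes most like the summed members. Alternatives changed the pseudocount, filter, scaling, variance model, weights and libraries. Promoters came from RefSeq GRCr8, without the bases after the start.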

Additional observations from a re-analysis of the deposited data

How the results depend on the processing

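Of all genes tested, 182 passed, 128 higher and 54 lower in stiff. When libraries were scaled to equal FPKM sums, 88 passed higher and 68 lower. The total was 92 with no level filter, 112 with no variance trend and 685 with array weights. It was 318 with voom on recovered reads, and 27 to 159 with 1 library left out. Of the isotypes 4 were past the threshold, 2 after quantile normalization, 1 with no variance trend and 0 to 4 with 1 library left out; since they were chosen on this contrast, nothing is read from these counts. Of the microtubule lists, 5 genes passed, and 3 did with no level filter, 8 with no variance trend, 16 with array weights, 15 with voom on recovered reads and 1 to 4 with 1 library left out. The log2 ratio of summed alpha-tubulin, 0.42, was 0.38 after quantile normalization and 0.37 when libraries were scaled to equal sums, and that of beta-tubulin, 0.34, was 0.27 and 0.29. Where these counts and ratios moved, the cause was not tested. Leaving out a library lowered the number of samples and changed which libraries were compared, and these were not told apart. With the replicate number as a block (replicate block) 105 genes passed, 2 isotypes (Tuba1a and Tuba1b) and 2 list genes; same-numbered libraries deviated together with correlations of 0.06, 0.12 and -0.08, and not every library was most like its own number, so the numbers were not taken to pair them. Removal of a trend with gene length was chosen after seeing the data and left the same 4 isotypes. Depth limits Tuba1c, Tubb3 and Tubb2b, with 486, 588 and 20 reads in all.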
